A study of Mus musculus with 16 samples.

Results

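The genes described are 58 mouse genes with very long gene bodies, listed for their length, with no measured value in the rule. The list was nevertheless chosen with earlier results of these data known. The list is not complete, since 125 other genes of 500 kb or more were tested. All 58 had at least 1 probe on the array, with 133 probes in all, and 50 of them (98 probes) were kept after dim probes were left out, among 18336 genes tested. In the RefSeq annotation of GRCm38.p6 they spanned 268 kb (Tcf12) to 2390 kb (Dmd) with a median of 1011 kb, 50 of the 58 were at least 500 kb long, and the median of all 21900 protein-coding genes was 17.1 kb. Messenger RNA was measured in P19 cells, a mouse embryonal carcinoma line, 48 h after transfection with a control, a let-7a mimic (let-7a), a small interfering RNA against Sfpq (siSfpq), or the mimic and the interfering RNA together (let-7a + siSfpq). Each of the 4 conditions had 4 Agilent arrays of 1 colour, and all came from this line with no genetic change stated. Replicates 1 and 2 of a condition lay on 1 slide and differed about as much as repeat spots of 1 probe on 1 array (an SD of 0.137 against 0.127 in siSfpq, and below that of repeat spots in the other conditions), so their mean entered as a single sample, and each condition has 3 samples.

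Sfpq is an RNA-binding protein of the nucleus that pairs with Nono or Pspc1, its relatives in the same family, and is best known from paraspeckles, from splicing and from transcription. It is known to travel with RNA polymerase II and to support the transcription of genes with very long introns, many of which act in the nervous system. A polymerase needs hours to cross such a gene, so the 5′ end is copied long before the 3′ end. The miRNA let-7a lowers the mRNAs that carry matches to its seed, promotes differentiation, and is kept low in embryonic cells. Its mature RefSeq sequence is shown because this RNA was the mimic, with the seed (bases 2 to 8) in capitals.
mmu-let-7a-5p: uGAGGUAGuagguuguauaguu

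The sequences that carry the second finding, a difference between probes at the 5′ and the 3′ side of 1 gene, are the probes themselves. The first 30 of the 60 bases of each are shown for Nrxn3, Pard3, Dmd and the single Foxp1 probe that appeared with siSfpq. Nrxn3 was called lower downstream than upstream. Its downstream probe was kept through let-7a and was above background on no siSfpq array, so that the size was not measured. Pard3 had small changes of opposite sign at its ends, and Dmd had the reverse pattern of Nrxn3. Positions are of the whole probe in mm9, the build of the array design, and whether a probe lies in a coding exon or an untranslated region is not given there. Upstream and downstream follow the direction of transcription.
Nrxn3 upstream, chr12:90089234-90089293, plus strand: ctccacccttcctggtcaaaagaagccatc
Nrxn3 downstream, chr12:91573315-91573374, plus strand: tgctttcccatttgctttttcgttcatgga
Pard3 upstream, chr8:129925900-129925959, plus strand: agtacttgcctagcatttacagcgccctgc
Pard3 downstream, chr8:130135585-130135644, plus strand: caaggccgcattactaagttattctgccgt
Dmd upstream, chrX:80596782-80596841, plus strand: tacaagagttcatgccctgaacaatgtcaa
Dmd downstream, chrX:82389391-82389450, plus strand: cgacttcgccaaggtactaaaaaacaaatt
Foxp1 probe that appeared with siSfpq, chr6:99102053-99102112, minus strand: tctgctgttcgggtcatgagacttatattt

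Between 33733 and 38464 of the 59305 spots of an array were well above background. The Sfpq level, as log2 of the normalized intensity, was 12.07, 11.98 and 11.98 in control (replicates 1 and 2, 3, and 4, the order used throughout), 12.04, 12 and 11.9 in let-7a, 10.55, 11.46 and 10.62 in siSfpq, and 11.31, 11.49 and 11.41 in let-7a + siSfpq. Sfpq thus fell 2.19-fold with siSfpq (adjusted p = 0.00728, limma), but replicate 3 fell by only 0.52 on the log2 scale against 1.52 and 1.36 in the others. Pspc1 rose 1.80-fold with siSfpq (adjusted p = 0.00216), with no overlap between the groups, and Nono was at 15.47 to 15.56 in siSfpq and 15.49 to 15.53 in control. Replicate 3 also stood apart from the others in every condition. The same spots differed between arrays 1 and 3 by an SD of 0.360 to 0.557 (log2), and between arrays 1 and 4 by 0.171 to 0.235. Results are therefore also given without it.

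Long genes fell with siSfpq. Of the 50 members kept, 20 were called lower (40%, against 7.35% of all genes) and 1 was called higher (6.32% of all genes) at an adjusted p under 0.05 in limma. The median member changed by -0.56 on the log2 scale and 40 of 50 lay below 0, whereas the median of all other genes was 0.01. The median was -0.25 with normexp background correction and -0.33 in the authors' table, and a fit of these 6 samples alone called 0 members and 0 genes of the array. In the 3 samples taken alone the median of the members was -0.67, -0.31 and -0.57, the smallest in replicate 3. With let-7a, where Sfpq was not called, replicate 3 also gave the smallest median (0.18, 0.1 and 0.16). Whether the size of the fall goes with the loss of Sfpq was not tested. Blocking on the replicate number, a pairing that the labels do not state, gave 27 members lower and 3 higher, against 19.3% and 18.4% of all genes. Without replicate 3, 33 members were called (66%), against 49.3% of all genes (25.3% lower and 24% higher). Without either other replicate no gene of the array was called. There, 16 members (32%, against 10.2% of all genes) had an unadjusted p under 0.05 without replicates 1 and 2, and 17 (34%, against 9.39%) without replicate 4.

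The 8 members left out as dim were Nlgn1, Opcml, Lsamp, Lrp1b, Nrg3, Ctnna3, Pard3b and Sgcd, none of which had a probe well above background on all arrays of any condition. A member kept only through a condition in which it is high had to differ, so the 45 members with a probe above background on all 16 arrays were also taken alone. Of these, 12 were lower (26.7%) and 0 higher with siSfpq, where 6.73% and 6.14% of all genes so measured were called. Their median was -0.27, and 33 of the 45 lay below 0.

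**Figure D1:**
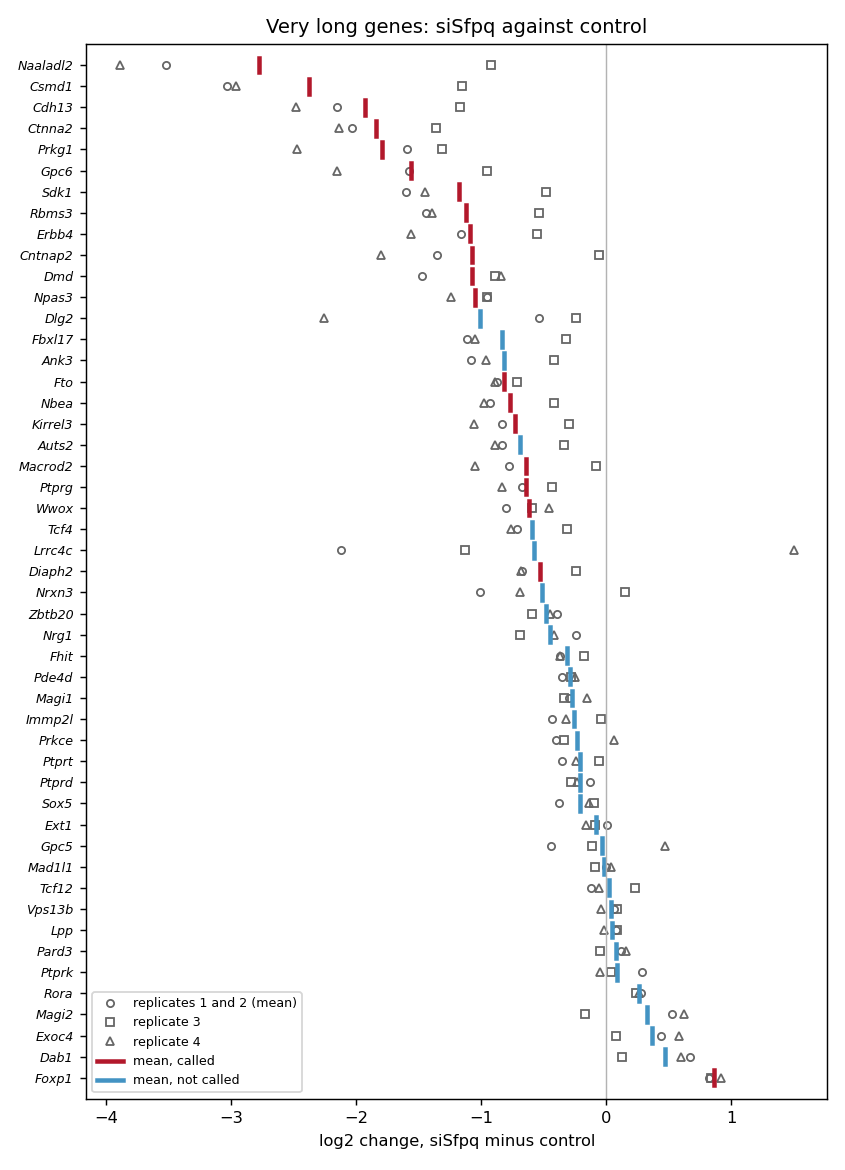
Log2 change from control to siSfpq for 49 of the 50 members kept, ordered by their mean change. Open symbols are the differences within replicates 1 and 2 (circle), 3 (square) and 4 (triangle), and bars are means, red where the adjusted p was under 0.05. Changes of Naaladl2, Prkg1 and Csmd1 are set by siSfpq arrays mostly not above background and have no order. Of the means, 39 of the 49 lay below 0, and replicate 3 lay nearest to 0 for most of the members that fell.

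Of the 11 genes listed under adhesion, most of which join neurons at synapses or hold cells together at their surface, 7 were kept. Among these, 5 were called lower and none higher, and their median change was -1.07. This count includes members kept through the conditions where they were high, and with probes above background on all 16 arrays 5 were kept, 2 were called lower (Cdh13 and Sdk1) and the median was -0.77. Beside this and the counts of the roles that follow stand the 7.35% lower and 6.32% higher of all genes. Cdh13, a cadherin anchored in the membrane by a lipid, was at 9.06, 7.86 and 8.87 in control and at 6.91, 6.68 and 6.39 in siSfpq. It was called lower without overlap between the groups (adjusted p = 0.00746). Its probe above background on all arrays fell 4.69-fold (adjusted p = 0.00111), and the other, on 2 of 4 siSfpq arrays above background, was not called (adjusted p = 0.0676). Sdk1, an immunoglobulin adhesion molecule of retinal synapses, was at 9.5, 9.37 and 9.55 in control and 7.9, 8.9 and 8.1 in siSfpq. It fell 2.26-fold (adjusted p = 0.0113), and the sample of replicate 3 was the highest of the siSfpq samples. Csmd1, a very large membrane protein that limits complement, was at 4.82, 4.81 and 4.76 in control and not well above background on any siSfpq array, which makes it at least 1.62-fold lower (adjusted p = 0.0257). Cntnap2, a neurexin relative that clusters potassium channels on axons, was called lower (adjusted p = 0.0417), with -0.06 in replicate 3 against -1.35 and -1.80. Its probe above background on all arrays changed by -0.77 (adjusted p = 0.0705, and 0.0167 with the block). Kirrel3, a nephrin relative, was called lower, but only 1 of its 3 probes carried that change, with 1 of 4 siSfpq arrays above background. Nrxn3 changed by -0.51 (adjusted p = 0.252) and Lrrc4c by -0.58 (adjusted p = 0.607), and both overlapped with control.

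The scaffold, polarity and cytoskeleton genes lay on both sides of 0, with 5 below and 4 above. Of 11, 9 were kept, and 2 of them, Ctnna2 and Diaph2, were called lower, while the median was -0.27. Ctnna2, the α-catenin of neurons that links cadherins to actin, was at 8.09, 8.35 and 8.02 in control and at 6.06, 6.99 and 5.88 in siSfpq, without overlap (adjusted p = 0.00545). Its probe above background on all arrays fell 3.28-fold (log2 change -1.71, SE 0.182, adjusted p = 0.00225), and the other was above background on 1 of 4 siSfpq arrays. Diaph2, a formin that nucleates actin filaments, fell 1.44-fold (adjusted p = 0.0404). Ank3, the ankyrin of the axon initial segment, changed by -0.82 with overlapping groups (adjusted p = 0.125, and 0.00693 with the replicate block). This mean includes a probe above background on no siSfpq array. The Ank3 probes above background on all arrays changed by 0.14 and -0.74 (adjusted p = 0.637 and 0.0745, and 0.444 and 0.0386 with the block). Dab1, the adaptor of the reelin receptors, changed by 0.47 (adjusted p = 0.292, and 0.0123 with the block). Lpp, Pard3 and Magi2 lay between 0.05 and 0.33 and were not called with or without the block. The same held for the scaffolds Magi1 (-0.27) and Dlg2 (-1.01, adjusted p = 0.186), the latter with 3 of 4 siSfpq arrays above background.

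Dmd, the longest of all, codes for dystrophin, which ties actin to the membrane of muscle cells. It was at 6.51, 5.54 and 5.98 in control and 5.04, 4.64 and 5.13 in siSfpq (adjusted p = 0.04), a mean over probes that did not move together. Of the neuregulin group, Erbb4, a receptor tyrosine kinase for neuregulins, fell 2.13-fold from 7.68, 7.93 and 7.65 to 6.52, 7.38 and 6.09 (adjusted p = 0.0494). Its ligand Nrg1 changed by -0.45 with overlapping groups (adjusted p = 0.488, and 0.0151 with the block).

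One of 4 receptor tyrosine phosphatases was called, Ptprg, which fell 1.56-fold (adjusted p = 0.015) from 8.46 to 8.50 in control to 7.63 to 8.08 in siSfpq. The 3 others, Ptprd, Ptprk and Ptprt, lay between -0.21 and 0.09 and were not called. Of the heparan sulfate genes, the glypican Gpc6, a proteoglycan held at the membrane, was at 7.05, 7.32 and 6.89 in control and at 5.47, 6.38 and 4.74 in siSfpq, a 2.95-fold fall (adjusted p = 0.0163). Ext1, which polymerizes heparan sulfate and is among the shortest members at 278 kb, changed by -0.08, and Gpc5 by -0.03.

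The 9 regulators of transcription and RNA had a median of -0.48, with 2 called lower and 1 higher. Rbms3, which binds RNA, was at 7.62, 6.97 and 7.52 in control and at 6.18, 6.44 and 6.12 in siSfpq, a 2.18-fold fall (adjusted p = 0.00927). Npas3, a transcription factor of neural development, was at 5.96, 5.86 and 6.12 and at 5.01, 4.90 and 4.89 (adjusted p = 0.00592). Its probe above background on all arrays fell 1.67-fold (adjusted p = 0.0299) and the other, on no siSfpq array above background, at least 1.76-fold. Auts2, a nuclear regulator of neuronal genes, changed by -0.69 without overlap (adjusted p = 0.0634, and 0.0047 with the block). The zinc finger factor Zbtb20 (-0.48, adjusted p = 0.211) and the helix-loop-helix factor Tcf4 (-0.59, adjusted p = 0.106) were called lower with the block alone (adjusted p = 0.00419 and 0.0187). Tcf12 (0.02), Sox5 (-0.21) and Rora (0.26) were not called. Foxp1, a forkhead factor, was the single member called higher (adjusted p = 0.0124), and this came from 1 of its 5 probes. With probes above background on all 16 arrays Foxp1 changed by -0.12.

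Prkg1, the kinase activated by cyclic GMP, was at 5.6, 5.72 and 5.5 in control and 4.01, 4.41 and 3.04 in siSfpq (adjusted p = 0.0104), with 1 of 4 siSfpq arrays above background. The phosphodiesterase Pde4d changed by -0.29 (adjusted p = 0.184, and 0.0372 with the block), and the kinase Prkce by -0.23 (adjusted p = 0.706). In membrane traffic, Nbea, which serves the sorting of receptors to synapses, fell 1.71-fold (adjusted p = 0.0233), whereas the tether subunit Exoc4 changed by 0.37 (adjusted p = 0.163, and 0.0333 with the block) and Vps13b by 0.04. Of the 8 fragile-site genes and other enzymes, 4 were called lower and none higher, and with probes above background on all 16 arrays 2 of 7 (Fto and Wwox). Naaladl2, a peptidase relative, was at 5.38, 5.30 and 5.69 in control and 1.86, 4.38 and 1.80 in siSfpq (adjusted p = 0.017), with 1 of 4 siSfpq arrays above background. Fto, an RNA demethylase, fell 1.77-fold (adjusted p = 0.014), and the oxidoreductase Wwox 1.53-fold (adjusted p = 0.0261). Macrod2 was called (adjusted p = 0.0485) through 1 of 3 probes, which was above background on 2 of 4 control and no siSfpq arrays. The F-box protein Fbxl17 was lower with the block alone (-0.83, adjusted p = 0.0913, and 0.00499 with the block). Fhit, Immp2l and Mad1l1 changed by -0.31, -0.26 and -0.02 and were not called, and Mad1l1 was at 11.4 to 11.55 in control and 11.44 to 11.47 in siSfpq.

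**Figure D2:**
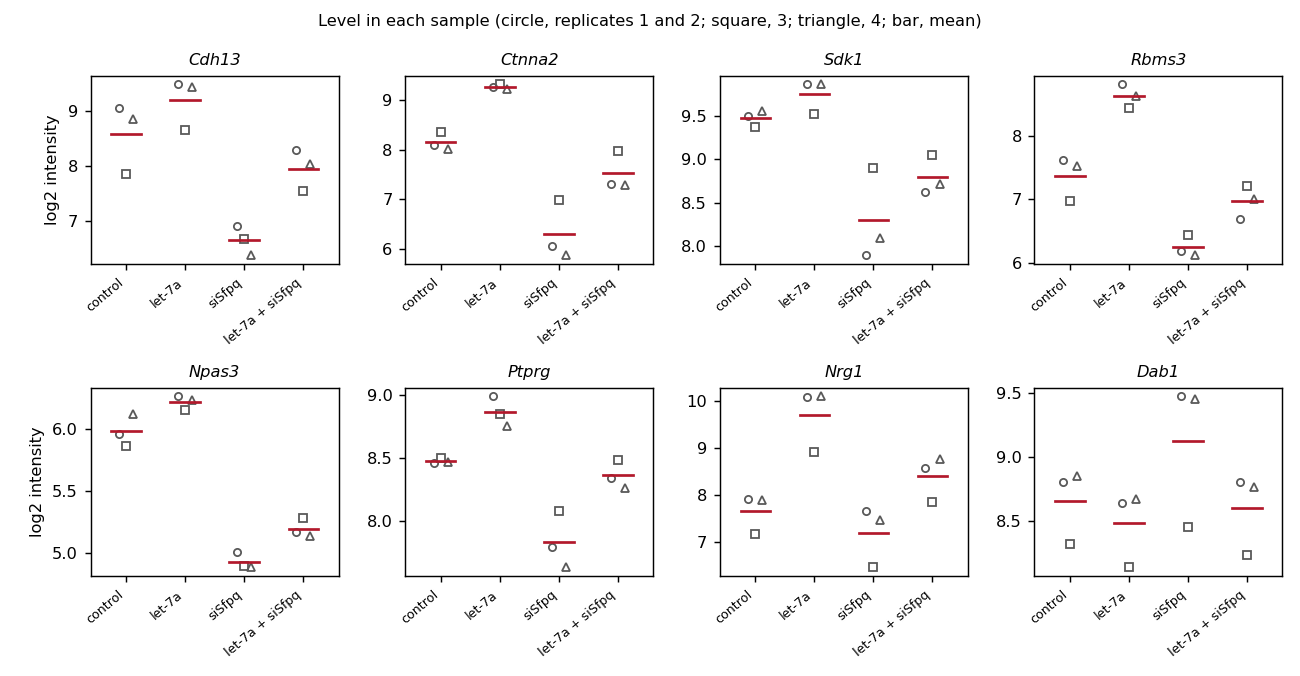
Log2 normalized intensity of 8 members in each sample, by condition. Circles are the mean of replicates 1 and 2, squares replicate 3 and triangles replicate 4, and red bars are means of the 3 samples. In siSfpq, Cdh13, Ctnna2, Sdk1, Rbms3, Npas3 and Ptprg lay below every control sample, while Ctnna2, Rbms3 and Nrg1 lay above them in let-7a.

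Over the whole array, the shift with siSfpq appeared in the longest genes, with length known for 15783 genes. Across these genes the rank correlation of change and length was only -0.0202 (Spearman), and it was -0.293 across the 50 members, where genes are not independent replicates. The median change was -0.01 for genes under 10 kb, 0.03 at 10 to 30 kb, 0.05 at 30 to 100 kb, -0.06 at 100 to 300 kb, -0.35 at 300 to 500 kb, and -0.52 for the 167 genes of 500 kb or more. The share called lower was 7.14%, 5.97%, 6.41%, 13.9%, 26.2% and 35.9% over the same classes, and the share called higher was 5.33%, 8.12%, 8.18%, 6.04%, 2.62% and 1.8%. The 3 samples gave -0.56, -0.34 and -0.6 for the longest class. Among genes above the median of mean level, 24 were this long and 12 of them were called lower, while 33.6% of 143 such genes below it were. With a probe above background on all 16 arrays, 29.6% of the 125 longest genes were lower against 6.64% of those under 10 kb, and the median of the longest class was -0.27.

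The pattern was not limited to the listed genes. Of 125 other genes of 500 kb or more, 41 were called lower and 2 higher, with a median of -0.49. The 41 include Fstl5, Sntg1 and Dlgap2, above background on 1, 1 and 3 of 4 control arrays and on 0 siSfpq arrays. All 4 let-7a arrays of these genes were above background, and the count of 41 thus rests partly on the filter. For these 125 genes no count was made with probes above background on all arrays of every condition. Thsd4, Tmem132d and Dpyd were called lower (adjusted p = 0.0424, 0.0109 and 0.0147), but were above background on only 1, 0 and 0 siSfpq arrays, so that the size of their fall was not measured. Among those above background on all arrays of both groups, a choice made after the values were seen, the leading falls were Dpp6, a potassium channel partner (3.36-fold, adjusted p = 0.00987), Cadps2, a priming factor of dense-core vesicles (3.07-fold, adjusted p = 0.0163), and Dgkb, a diacylglycerol kinase (2.98-fold, adjusted p = 0.0119). The 2 rises were Ryr2, the calcium release channel of the heart (2.01-fold, adjusted p = 0.0226), and Syne1, a giant protein of the nuclear envelope (1.94-fold, adjusted p = 0.0235).

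**Figure D3:**
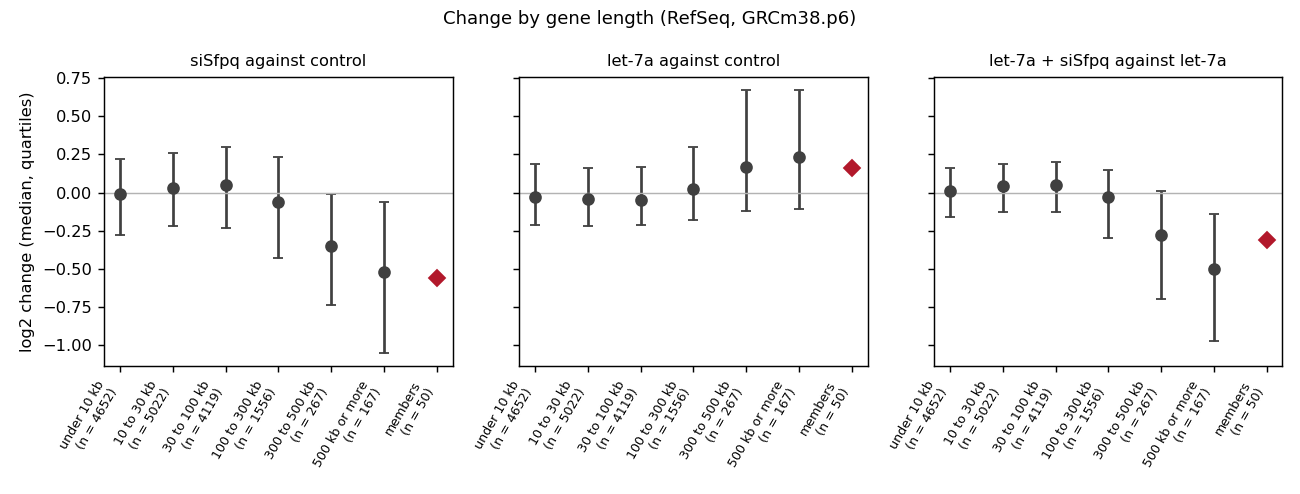
Median log2 change by class of RefSeq gene length, with bars from the lower to the upper quartile over genes, for siSfpq against control, let-7a against control, and let-7a + siSfpq against let-7a. The red diamond is the median of the 50 members. With siSfpq the median went from -0.01 under 10 kb to -0.52 at 500 kb or more, and with let-7a from -0.03 to 0.23.

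Markers of neurons moved in the same direction as the long genes, and the sets overlap, since the marker Syt1 is itself 513 kb long. With siSfpq, 7 of 12 neuron markers were called lower and none higher, with a median of -0.94 (7.35% and 6.32% of all genes, also for the marker lists that follow), among them Tubb3 (2.71-fold), Syt1 (2.46-fold) and Map2 (2.38-fold). The mean log2 level of the list was 9.71 to 10.37 in control, 9.25 to 9.37 in siSfpq, 10.94 to 11.67 in let-7a and 9.99 to 10.17 in let-7a + siSfpq. Of 6 mesendoderm markers kept, 1 (T, brachyury) was called higher with siSfpq, of 8 fibroblast markers 2, and of 9 embryonal carcinoma markers 2, with 1 lower (Sox2). From control to siSfpq the mean level went from 6.75 to 6.95 to 7.44 to 8.13 for mesendoderm, from 8.19 to 8.35 to 8.12 to 8.47 for fibroblasts, and from 10.99 to 11.17 to 11.22 to 11.36 for embryonal carcinoma. The mesendoderm markers Mixl1 and Sox17 and the stem cell marker Zfp42 were not above background on all arrays of any condition. The part of cell identity in the change of the long genes was not tested, and in such bulk samples fewer cells of a type and less RNA per cell cannot be told apart. Factors of transcription elongation and topoisomerases showed 1 call each way among 20 kept, Hexim1 2-fold lower and Nelfa 1.33-fold higher.

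Within genes, the change at the most downstream probe was more often the lower. In many members, Auts2, Rora, Wwox and Pard3 among them, the probes compared were assigned to different transcripts. Where both had the same transcript, the downstream change was the lower in Exoc4, Fhit, Ptprd and Vps13b and the higher in Diaph2 and Dmd. Whether the differences are of position or of transcript was not tested. There were 382 genes with kept probes at least 50 kb apart, and 20 of them were members. At the most downstream probe the siSfpq change lay below that at the most upstream probe in 17 of 20 members and in 276 of 362 other genes, with median differences of -0.58 and -0.32. Members had a median of -0.11 upstream and -0.41 downstream, and the other genes 0.12 and -0.20. Fitted over all 382 genes, the difference was called lower downstream in 2 members and higher in 1, against 8.12% and 0.524% of all pairs. With the replicate block these were 10 and 2 of 20, against 31.9% and 3.93%. In the other genes the median difference was -0.21 under 100 kb, -0.32 at 100 to 300 kb, -0.48 at 300 to 500 kb and -0.58 at 500 kb or more, which in the longest class was the value of the members.

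Nrxn3, a presynaptic adhesion protein, was called lower downstream than upstream (adjusted p = 0.0102). Its first probe was at 7.79, 7.89 and 7.87 in control and 7.73, 8.06 and 8.20 in siSfpq, and a probe 962.8 kb downstream was also not lower. At 1484.1 kb it was at 4.94, 4.42 and 5.11 in control, with 3 of 4 arrays above background (the probe was kept through its 4 let-7a arrays), and on no siSfpq array above background, at least 1.64-fold lower (adjusted p = 0.0149). A probe at 1482.1 kb, close to it, was at 4.47, 4.84 and 4.55 in control and 2.88, 5.86 and 3.25 in siSfpq (adjusted p = 0.55), with 1 of 4 siSfpq arrays above background. The size of the difference along Nrxn3 was thus not measured, and close probes differed. In Macrod2 both probes at the 5′ side changed by -0.32 and -0.17, and neither was called, while the probe 1970.1 kb downstream was kept only through its 4 let-7a arrays, with 2 of 4 control arrays and no siSfpq array above background, so that no loss was measured there. Kirrel3 was called as well (adjusted p = 0.0422), with 1 of 4 siSfpq arrays above background at its last probe. However, its 2 downstream probes lay close together and changed by 0.09 and -1.95, so that this difference is one between probes and not only between positions.

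In Pard3, Exoc4 and Rora neither the ends nor their difference passed the test without the block. With the block the differences passed, as did rises at the upstream probe (adjusted p = 0.00447, 0.00468 and 0.00725) and the fall at the downstream probe of Pard3 (adjusted p = 0.011). Pard3, a polarity protein, went from 0.51 at the first probe through 0.23 and -0.09 to -0.34 at 209.7 kb, and the upstream probe was at 11.40, 10.96 and 11.41 in control and 11.90, 11.47 and 11.93 in siSfpq. The difference was -0.85 (adjusted p = 0.0611, and 0.00117 with the block), and it was -0.86, -0.76 and -0.93 in the 3 samples. Exoc4 went from 0.80 to -0.07 over 666.8 kb and Rora, a nuclear receptor, from 0.82 to -0.30 over 714.9 kb (adjusted p = 0.154 and 0.13, and 0.00103 and 0.0124 with the block). In Auts2 and Wwox downstream probes did pass, but the difference between the ends was not called without the block. Auts2 changed by -0.1 upstream (SE 0.555) and by -1.04 and -0.91 at 330.6 and 332.8 kb (adjusted p = 0.929, 0.00887 and 0.0109). Wwox went from 0.31 to -1.15 over 879.8 kb, but its first probe was above background on only 2 control arrays.

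Dmd ran the other way. Its first probe fell from 5.98, 4.78 and 4.97 to 3.1, 3.37 and 3.45, at least 2.2-fold, and the probe 535.6 kb downstream at least 2.94-fold (adjusted p = 0.00951 and 0.00928). The probe at 1792.6 kb, toward the 3′ end that the short dystrophin isoforms share, was at 7.29, 6.68 and 7.26 in control and 8.27, 6.67 and 8.29 in siSfpq, a change of 0.66 (adjusted p = 0.33, and 0.0242 with the block). The difference was called (adjusted p = 0.00822), but its size was not measured, since no siSfpq array was above background at the first probe. Ank3 also had the higher change downstream (adjusted p = 0.585, and 0.0374 with the block), with an upstream probe above background on no siSfpq array. Diaph2 changed by -0.61 upstream and -0.45 downstream (adjusted p = 0.0145 and 0.126), a difference of 0.16 (adjusted p = 0.686).

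The Foxp1 call came from a probe 10.9 kb downstream of the first. It was at 1.68, 1.71 and 1.73 in control, where no array was above background, and at 6.53, 6.19 and 6.77 in siSfpq, where all 4 were, which makes it at least 5.96-fold higher (adjusted p = 1.59e-05). The groups lay far apart in every replicate. The other 4 Foxp1 probes changed by 0.13, -0.11, -0.28 and -0.24, and none of these was called, though the last pair was lower with the block (adjusted p = 0.0188 and 0.0302). This probe was assigned to a single Ensembl transcript and not to the RefSeq mRNA of the last probes. Whether its signal comes from Foxp1 RNA was not tested.

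**Figure D4:**
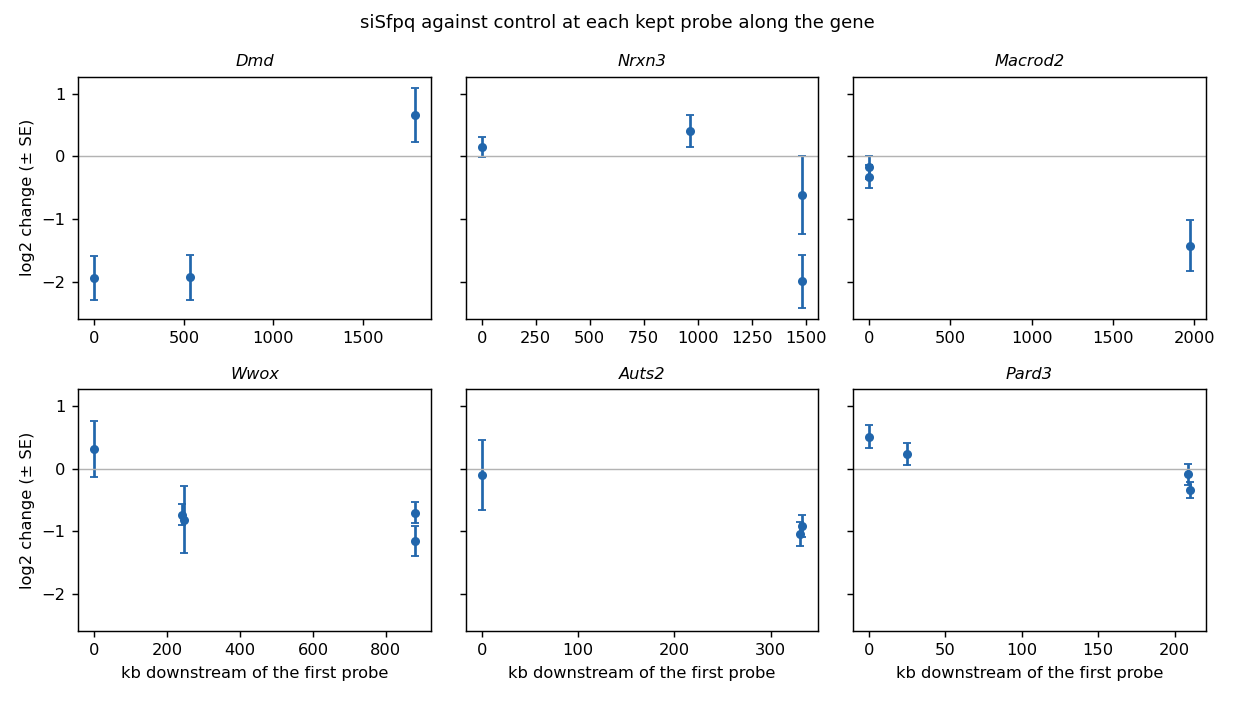
Log2 change from control to siSfpq (± SE, n = 3 samples per group) at each kept probe of 6 members, against the distance in kb downstream of the first kept probe. Nrxn3, Macrod2, Wwox, Auts2 and Pard3 were lowest at or near the last probe, and Dmd was lowest at its first 2 probes and at 0.66 at the last. Points where no siSfpq array was above background (the first 2 of Dmd and the last of Nrxn3) show a direction and not a measured size. The last of Macrod2, also above background on only 2 of 4 control arrays, shows no measured loss.

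**Figure D5:**
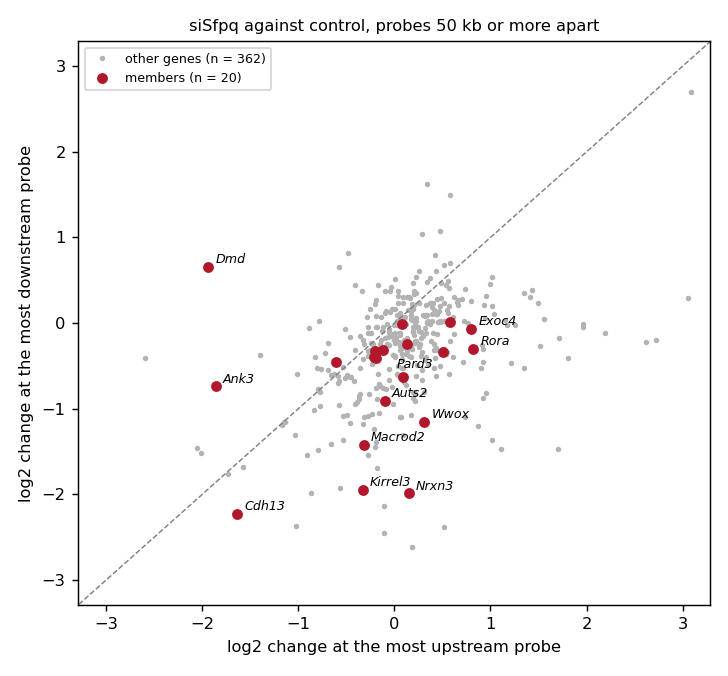
Log2 change from control to siSfpq at the most upstream probe (horizontal) and the most downstream probe (vertical) of each gene with kept probes at least 50 kb apart. Grey points are 362 other genes, red points 20 members, and points under the dashed line changed less or fell more downstream. Of the members, 17 lay under the line, and Dmd, Ank3 and Diaph2 above it.

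Pairs with both probes above background on all 16 arrays gave the same direction, with 12 of 13 members and 212 of 273 other genes lower downstream and medians of -0.38 and -0.28, but none of the 3 called members is among these 13 and 0 of the 13 were called lower, against 20 of the 273. With the block the counts were 5 of 13 and 84 of 273. No such tilt was seen with let-7a, where the downstream change was the lower in 9 of 20 members and in 172 of 362 other genes and the median differences were 0 and 0.01. When siSfpq was added to let-7a, it was lower downstream in 15 of 20 members and 232 of 362 other genes.

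The let-7a mimic moved the members less. Of the 50, 3 were called higher (6%, against 4.9% of all genes) and none lower (2.02% of all genes), so the count of members was near the background. Their median change was 0.16 against -0.04 for all other genes. Nrg1, a neuregulin, rose 4.09-fold, from 7.91, 7.18 and 7.90 to 10.08, 8.91 and 10.09 (adjusted p = 0.0113). Rbms3 rose 2.38-fold, from 7.62, 6.97 and 7.52 to 8.81, 8.44 and 8.62 (adjusted p = 0.00438). Ctnna2 rose 2.15-fold, from 8.09, 8.35 and 8.02 to 9.26, 9.31 and 9.21 (adjusted p = 0.0323). None of the 3 overlapped with control. The synaptic adhesion protein Lrrc4c was 4.58-fold higher in let-7a without overlap but missed the threshold (adjusted p = 0.0752, and 0.0373 with the block).

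With the block, 12 members were higher and 1 (Erbb4) lower with let-7a, against 11.6% and 10.1% of all genes. Without replicate 3, 20 members were called (40%), against 30.1% of all genes (15.6% higher and 14.5% lower). Other genes of 500 kb or more were called higher more often than the members, with 25 of 125 called higher and none lower and a median of 0.26. The 25 include Dach2, Fstl5, Grid1, Rgs6 and Dlgap2, above background on 0, 1, 2, 2 and 3 of 4 control arrays and on all 4 let-7a arrays. They were kept through a condition in which they were high, so the counts of the lists rest partly on the filter. The difference between the lists was not tested. By length class the share called higher with let-7a was 4.82%, 4.74%, 4.98%, 8.87%, 14.2% and 16.8%, and it was 10.4% in the longest class with a probe above background on all 16 arrays. Of 12 neuron markers, 9 were called higher (4.9% of all genes, median 1.53), and their part in these shares was not tested. The let-7 target list served as a check of the mimic, and all 18 of its genes lay below 0, with 5 called lower (2.02% of all genes).

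With siSfpq added to let-7a, most members lay below their let-7a level, though few passed the test. Against let-7a alone the median member changed by -0.31, 42 of 50 lay below 0, 4 were called lower and none higher, where 2.18% and 0.954% of all genes were called. The 4 were Rbms3 (3.14-fold, adjusted p = 0.00452), Ctnna2 (3.33-fold, adjusted p = 0.0103), Npas3 (2.02-fold, adjusted p = 0.0103) and Sdk1 (1.93-fold, adjusted p = 0.0463). Rbms3 went to 6.69, 7.21 and 7 and Ctnna2 to 7.31, 7.98 and 7.29, below all let-7a samples. With the block 19 members were lower and 1 higher (7.19% and 5.97% of all genes). Without replicate 3, 26 were called (52%), against 26.8% of all genes (13.2% lower and 13.6% higher). The 3 samples gave medians of -0.35, -0.28 and -0.39. Sfpq itself was 1.49-fold lower than in let-7a but did not pass (adjusted p = 0.142, and 0.0503 with the block).

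Compared with control, the members in let-7a + siSfpq had a median of -0.22, with Npas3 lower (1.72-fold, adjusted p = 0.0361) and Foxp1 higher (adjusted p = 0.0131, a mean that includes the probe not above background in control), where 0.245% and 1.29% of all genes were called. Compared with siSfpq alone their median was 0.24, with 6 higher and none lower (6.21% and 4.14% of all genes), and 12 higher and 3 lower (Dab1, Exoc4 and Pard3) with the block (17.6% and 15.7% of all genes). The 6 called higher without the block were Rbms3 (1.65-fold), Pde4d (1.46-fold), Ptprg (1.44-fold), and Cdh13, Ctnna2 and Prkg1, which had a probe below background on some siSfpq arrays and are given no fold, with adjusted p from 0.0217 to 0.0456. These comparisons share samples with those above and are not independent of them. Sfpq was also 1.44-fold higher in let-7a + siSfpq than in siSfpq (adjusted p = 0.0994, and 0.0383 with the block), and whether this bears on the 6 genes was not tested.

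An interaction between the mimic and the knockdown was called in 0 of 18336 genes (0%) by limma, with 1164 genes and 1 member at an unadjusted p under 0.05, and in 4 genes and no member with the block. Without replicate 3, where only 2 samples per condition remained, 10 of 50 members were called, against 22.5% of all genes, so the count was at the background. These 10 calls hold only with replicate 3 left out, and without replicates 1 and 2, or without replicate 4, 0 were made, also at an unadjusted p under 0.05.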

How the data were processed

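Total RNA of P19 cells was labelled with Cy3 and hybridised to 16 Agilent SurePrint G3 mouse arrays, 4 per condition. The authors deposited the spot intensities of the Feature Extraction software (version 10.7.3.1 per the file headers), of which the processed intensities are background-subtracted, and a table of log2 values that they quantile normalized with limma. Here the processed intensities were taken to log2 and normalized by quantiles (limma 3.58.1 in R 4.3.3). Outlier spots were left out, spots of a probe averaged, probes kept if some condition had all 4 arrays well above background, and 39 probes with a missing value dropped. Probes were named by RefSeq accession (28026 probes), by symbol (3418) or by the file's name alone (5332), others were left out, and probes of a gene were averaged. Members were found by GeneName or accession. The values of 1 member are not reported here, though it is in the counts.

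Replicates 1 and 2 were averaged because the same spots differed between them by an SD of 0.128 to 0.162, as repeat spots of a probe did on 1 array (0.127 to 0.166, 432 probes). This left 12 samples, fitted in 1 limma model of 4 means with an intensity trend and Benjamini-Hochberg adjustment over all genes, called at an adjusted p under 0.05. Nothing in the labels says that replicates were separate cultures, so p-values measure the spread between these samples. Same-numbered samples deviated together (r of 0.284 to 0.707 over genes), so values blocked on the replicate number are also given. The labels state no pairing. Whether these correlations reflect pairing, the slide, or a replicate 3 that stood apart in every condition was not tested. Pairs of probes were taken on 1 chromosome and strand at least 50 kb apart in mm9, spanning at most 1.2 times the RefSeq length, and the downstream minus upstream value was fitted likewise. The code was tested on simulated data. Genes with a value in every sample were named as follows: Sfpq and its partners, the 6 members with the largest called falls and the called rises among those above background on all arrays of both groups, the member with the largest change in each role, and the 3 largest calls each way among other genes of 500 kb or more. The members and the lists were chosen with earlier results of these data known. The number of arrays limits the precision. The spread includes the slide, since replicates 1 and 2 lay on 1 slide and 3 and 4 on another.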

Additional observations from a re-analysis of the deposited data

How the results depend on the processing

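The fall of the members with siSfpq kept its sign under every alternative tried, but the size and the number of calls did not hold. Members called with siSfpq numbered 21, and 13 with no filter on dim probes, 12 with probes above background on all 16 arrays, and 0 in a fit of these 6 samples alone. Their median of -0.56 became -0.25 with normexp correction, -0.33 in the authors' table and -0.27 above background on all 16 arrays. For genes of 500 kb or more the median of -0.52 became -0.21 with normexp, -0.29 in the authors' table, -0.26 without the filter and -0.27 on all 16 arrays, and the 35.9% called lower became 17.9% without the filter. These corrections and filters differ in how they treat dim spots, and the cause was not tested. With let-7a, 3 members were called, against 6 with normexp, 5 in the authors' table, 1 without the filter, 5 in a fit of these 6 samples alone, 13 with the replicate block and 12 with 16 arrays counted separately, and their median of 0.16 became 0.11 with normexp, 0.09 without the filter, 0.10 on all 16 arrays and 0.11 with the brightest probe. For let-7a + siSfpq against control, 2 members became 1 with 75th percentile scaling, with normexp, in the authors' table, without the filter, on all 16 arrays and in a fit of these 6 samples alone, 0 with the brightest probe, 12 with the replicate block and 13 with 16 arrays. Against let-7a, 4 became 9 with normexp, 8 in the authors' table, 2 without the filter, 20 with the replicate block and 18 with 16 arrays, and the median of -0.31 became -0.23 with normexp and -0.21 on all 16 arrays. Against siSfpq, 6 became 2 without the filter, 15 with the replicate block, 16 with 16 arrays and 0 in a fit of these 6 samples alone. The share of all genes moved as well. With the replicate block it was 37.7% with siSfpq and 21.7% with let-7a, and 8.15%, 13.2% and 33.3% for let-7a + siSfpq against control, let-7a and siSfpq. With 16 arrays it was 19.8% with let-7a and 7.90%, 14.2% and 32.4% for the same comparisons. For let-7a it was 7.66% with normexp, 7.24% in the authors' table, 3.77% without the filter and 9.06% in a fit of these 6 samples alone, against 6.92%. Against let-7a it was 4.28% with normexp, 3.93% in the authors' table and 1.13% without the filter, against 3.14%. With siSfpq it was 5.54% without the filter and 12.9% on all 16 arrays, against 13.7%. For let-7a + siSfpq it was 0.653% to 1.63% against control under the other settings named, against 1.53%, and against siSfpq 3.82% without the filter and 1.2% in a fit of these 6 samples alone, against 10.4%. Of 20 probe pairs 3 were called, 12 with the replicate block, and 0 of 15 when pairs were chosen anew among probes above background on all 16 arrays (13 of the 20 were such pairs already), alternatives chosen after seeing the data.

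Leaving out 1 replicate at a time gave 0 to 33 members called with siSfpq (medians -0.65 to -0.46), 0 to 20 with let-7a (0.13 to 0.18), 0 to 23 for let-7a + siSfpq against control (-0.24 to -0.18), 0 to 26 against let-7a (-0.41 to -0.30, with -0.35 without replicate 4), 0 to 24 against siSfpq (0.18 to 0.30), 0 to 10 for the interaction (0.07 to 0.14), and 0 to 10 probe pairs (-0.77 to -0.41). The lowest counts came without replicates 1 and 2 or without replicate 4, where 16 and 17 members (32% and 34%) had an unadjusted p under 0.05 with siSfpq, against 10.2% and 9.39% of all genes, and the highest without replicate 3, where 49.3% of all genes were called with siSfpq, 30.1% with let-7a, and 18.3%, 26.8% and 47.2% for let-7a + siSfpq against control, let-7a and siSfpq. Of the called members, Naaladl2, Csmd1 and Prkg1 had no probe above background on all 16 arrays, Cntnap2 (-0.77), Erbb4 (-1.09) and Macrod2 (-0.25) were no longer called there, and Dmd became 0.66, Kirrel3 0.09 and Foxp1 -0.12 on all 16 arrays, and 0.66, 0.09 and -0.24 with the brightest probe, since these settings leave out the probes that carried the change.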
